A study of Mus musculus with 5 samples.

Results

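Brown adipose tissue (BAT) burns fuel to make heat, and leucine, isoleucine and valine, the branched-chain amino acids (BCAA), are among the fuels its mitochondria oxidize in the cold. A transaminase first moves the amino group of the BCAA to another acid, and the keto acid that is left enters the branched-chain keto acid dehydrogenase (BCKDH) complex, which commits it to oxidation. BCKDH is switched off when its kinase phosphorylates the E1 subunit and on again when its phosphatase removes the phosphate, and each keto acid then has its own enzymes downstream. Here 10 genes of this route, of 52022 genes in the tables, were described in BAT: the transaminases Bcat1 and Bcat2, the BCKDH subunits Bckdha, Bckdhb and Dbt, the BCKDH kinase Bckdk and phosphatase Ppm1k, and the leucine enzymes Ivd, Mccc1 and Mccc2. They were chosen by name for their place in the pathway, with earlier results of these data known.

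Interscapular BAT came from 3 ATF4 BKO and 2 WT mice, described as male on a C57Bl/6J background and 10 to 12 weeks old. They were fed ad libitum and had spent 7 days at 30 °C and then 3 days at 4 °C. Each sample therefore comes from the cold, and no warm control was analysed here. ATF4 BKO mice carry floxed Atf4 alleles and a Cre transgene driven by the Ucp1 promoter, so the deletion is limited to cells that express Ucp1, and other cells of the tissue keep the gene. WT mice were littermates with floxed Atf4 alleles and no Cre. Presence of the Cre transgene and loss of Atf4 therefore coincide across these mice and cannot be told apart. Each mouse gave 1 library, with 24698337 to 31558111 estimated counts per ATF4 BKO mouse and 30996438 and 32452751 in WT mice.

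The deleted gene, Atf4, was measured at 32.6, 52.6 and 23.5 CPM (counts scaled for library size, here with TMM factors) in ATF4 BKO replicates 1, 2 and 3 and at 286 and 226 CPM in WT replicates 1 and 2, so the libraries match their genotype labels. All 9 brown adipocyte markers passed the filter on low counts. Their summed level was 16100 to 19112 TPM (a unit corrected for both transcript length and sequencing depth) in ATF4 BKO mice against 17067 and 19231 in WT mice. Single markers varied, with log2 fold changes from -0.25 to 0.54 (5 above 0, 4 below). In CPM 0 of the 9 separated the genotypes. In TPM Cidea and Ebf2 were among those lower in every ATF4 BKO mouse, as were 24.9% of all genes tested. Libraries stood apart in other ways. The 16 skeletal muscle markers summed to 69.8 to 75.0 TPM in ATF4 BKO mice, 152 in WT replicate 1 and 2296 in WT replicate 2, with 15 of the 16 below both WT mice in every ATF4 BKO mouse and 2 of the 16 at 0 counts in ATF4 BKO replicate 3. The 8 macrophage markers summed to 427 to 1302 TPM in ATF4 BKO mice against 191 and 1166 in WT mice, with none at 0. All 5 endothelial markers had log2 fold changes above 0 (2 of 5 higher in every ATF4 BKO mouse, summed level 276 to 336 TPM in that genotype, 249 and 310 in WT). Of 5 white adipocyte markers 3 passed the filter, and in 2 each ATF4 BKO mouse lay below both WT mice (summed level 10.8 to 32.8 TPM, 28.2 and 32.5 in WT, with 1 or 2 of the 5 at 0 counts in each library). Of 5 general adipocyte markers 2 were higher in every ATF4 BKO mouse (11783 to 14609 TPM, 12250 and 13273 in WT), as was 1 of 6 B and T cell markers (2.98 to 4.62 TPM, 1.85 and 4.06 in WT), with none of these at 0. ATF4 BKO replicate 1, described as male, had 4598 counts of Xist, against 0 to 7 in the other libraries. The sex of that mouse is therefore uncertain. Library names carry a prefix whose meaning is not given, either S2 (replicate 3 of the ATF4 BKO group, replicate 2 of the WT group) or S1 (the remaining 3 libraries). Alternative fits given below used the muscle markers as a covariate, used the prefix as a block or left out a mouse. The part of these differences in the results was otherwise not tested, and in bulk tissue fewer cells of a type cannot be told apart from less RNA per cell.

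The 10 genes were expressed at very different levels, compared here in TPM, which corrects for transcript length. Bckdha, the E1 alpha subunit that carries the phosphorylation sites, was the most abundant at a mean of 295 TPM over the 5 mice (range 252 to 387), which placed it at the 97.5th percentile of the genes tested. Bckdhb, the E1 beta subunit, followed at 182 TPM (168 to 198), and Ivd, isovaleryl-CoA dehydrogenase of the leucine route, at 157 TPM (127 to 214). Bckdha exceeded Bckdhb in 5 of 5 mice, and Bckdhb exceeded Ivd in 4 of 5.

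Mccc1, Bcat2 and Dbt formed a middle tier whose order is not resolved. Mccc1, the biotin-bearing subunit of methylcrotonyl-CoA carboxylase, had 106 TPM (91.9 to 126). Bcat2, the mitochondrial transaminase, had 101 TPM (73.5 to 146) and lay below Mccc1 in only 3 of 5 mice. Dbt, the E2 core on which BCKDH is built, had 97.1 TPM (81.4 to 120) and lay below Bcat2 in only 2 of 5 mice.

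Mccc2, the carboxyltransferase subunit that pairs with Mccc1, had 68.2 TPM (58.2 to 78.9), and the kinase Bckdk had 60.9 TPM (51.7 to 69.3). The phosphatase Ppm1k was far lower at 7.71 TPM (5.97 to 9.05), a mean 7.89 times below that of Bckdk. Bcat1, the cytosolic transaminase, was the lowest at 2.77 TPM (1.13 to 4.52). BAT in the cold held mRNA of the mitochondrial transaminase in excess of that of the cytosolic one in 5 of 5 mice. Kinase mRNA was in excess of phosphatase mRNA in 5 of 5 mice.

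Part of this order rests on how short transcripts enter a TPM sum. Ivd-201, the only Ivd transcript annotated as protein-coding (3665 bases), held 77.8% to 82.9% of the gene's estimated counts but only 35.9% to 44.1% of its TPM, and the rest lay on shorter transcripts annotated as non-coding. With protein-coding transcripts alone, Ivd had a mean of 61.6 TPM, below Bcat2 at 97.5, Dbt at 95.9 and Mccc1 at 68.1. Mccc1-201, the coding transcript of Mccc1, held 60.6% to 72.1% of its gene's TPM, and the retained-intron transcript Mccc1-208 held 14.5% to 29.0%. Bckdha lay almost wholly on 1 transcript, Bckdha-201 (at least 99.8% of its TPM in each mouse), and Dbt on Dbt-201 (88.0% to 98.6%).

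**Figure D1:**
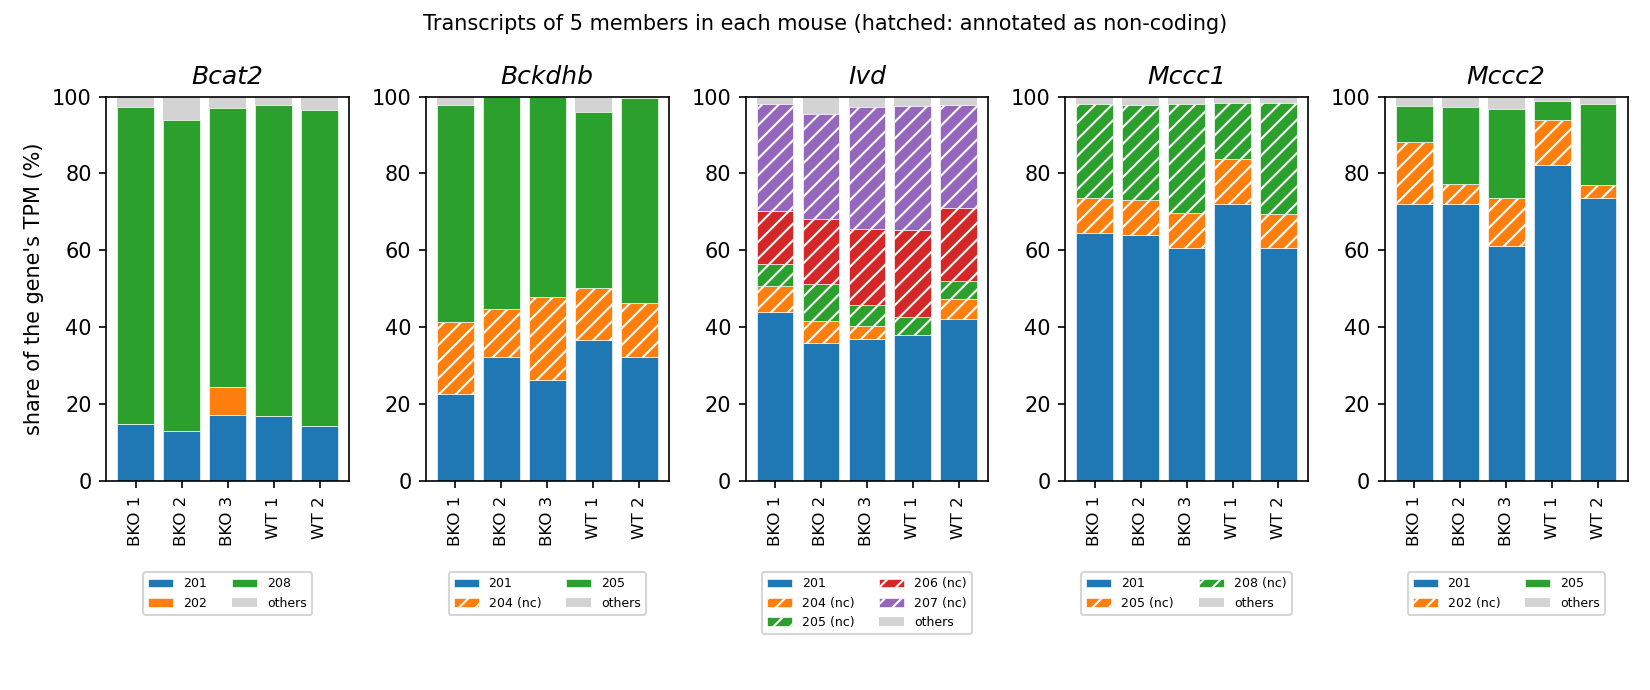
Share of the gene's TPM (%, vertical axis) held by each transcript with at least 5% in some mouse, for Bcat2, Bckdhb, Ivd, Mccc1 and Mccc2 in 3 ATF4 BKO (BKO) and 2 WT mice, with transcripts annotated as non-coding hatched and marked nc. Most of the Ivd bar is hatched in each mouse (Ivd-201 holds 35.9% to 44.1%), while Bcat2 lies mainly on its coding transcript Bcat2-208.

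Most Bckdhb counts lay on 2 coding transcripts whose starts are far apart on chromosome 9 (GRCm38, plus strand). The non-coding Bckdhb-204 held at most 6.39% of the gene's counts but 12.4% to 21.5% of its TPM. Bckdhb-201 begins at 83925150 and Bckdhb-205 at 83948781, and RefSeq places a start at 83925137 and at 83948781. Bckdhb-205 held 97.2, 92.1 and 97.1 TPM in ATF4 BKO replicates 1, 2 and 3 and 90.8 and 99.1 TPM in WT replicates 1 and 2, so the genotypes overlapped. Bckdhb-201 held 39.2, 54.4 and 49.4 TPM in ATF4 BKO mice against 73.1 and 60.0 TPM in WT mice, so each ATF4 BKO mouse lay below both WT mice. For TPM summed per gene, every ATF4 BKO mouse lay below both WT mice for 24.9% of the genes tested, and the share over single transcripts was not computed. Single transcripts were not tested, as the reads that both transcripts share are divided by estimate.

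The promoter windows of both Bckdhb starts are shown because both transcripts held counts, and that of Bckdk because the kinase is the off switch of the pathway. Each is 300 bases from RefSeq (GRCm38.p6), 250 before the start and 50 from it on, written along the plus strand, on which both genes lie, with the start base in capitals. They cover chr9:83924887-83925186, chr9:83948531-83948830 and chr7:127903823-127904122.
Bckdhb upstream start: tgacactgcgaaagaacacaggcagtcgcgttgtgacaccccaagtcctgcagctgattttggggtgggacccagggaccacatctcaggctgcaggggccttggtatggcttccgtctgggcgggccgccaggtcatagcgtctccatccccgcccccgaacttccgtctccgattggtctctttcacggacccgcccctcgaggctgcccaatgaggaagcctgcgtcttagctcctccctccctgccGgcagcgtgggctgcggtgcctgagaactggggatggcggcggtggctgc
Bckdhb downstream start: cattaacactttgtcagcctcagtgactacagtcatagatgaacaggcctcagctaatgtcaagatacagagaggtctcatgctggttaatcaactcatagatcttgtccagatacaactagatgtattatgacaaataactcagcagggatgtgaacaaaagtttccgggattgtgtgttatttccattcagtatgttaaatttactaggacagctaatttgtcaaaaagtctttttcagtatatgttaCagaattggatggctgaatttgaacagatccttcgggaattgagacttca
Bckdk: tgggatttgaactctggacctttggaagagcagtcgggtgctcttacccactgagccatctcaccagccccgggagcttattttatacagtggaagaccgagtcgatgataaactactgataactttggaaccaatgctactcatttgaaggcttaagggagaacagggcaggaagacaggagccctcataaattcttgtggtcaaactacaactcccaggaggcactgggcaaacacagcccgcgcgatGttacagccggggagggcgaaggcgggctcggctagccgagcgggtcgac

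ATF4 binds, as a dimer with C/EBP proteins, a composite element with the core TGATGNAA, and this core was searched on both strands of these windows. RefSeq windows were matched for 9 of the 10 genes (12 windows; Dbt had no entry), and 0 of the 12 held the core. Over all 32851 windows of this length, 3.97% held it. The search covers these letters in these windows only.

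Whether loss of ATF4 in thermogenic adipocytes changed this set in the cold was asked by comparing ATF4 BKO (n = 3) with WT mice (n = 2). All 10 genes passed the filter on low counts, and 0 of 10 were called by edgeR's quasi-likelihood test at an adjusted p of 0.05 in either direction, a threshold passed by 0.00608% of the 16450 genes tested, so that 0 of 10 lies near the background. Atf4, the deleted gene, was itself not called by this test (log2 fold change -2.82, edgeR adjusted p = 0.671), though DESeq2 called it. A gene not called by edgeR here may therefore still differ between genotypes. At an unadjusted edgeR p under 0.05, 0 of 10 passed, against 5.23% of all genes. DESeq2, the study's tool, called 0 of 10 after adjustment (0.736% of all genes) and had 1 of 10, Bckdha, at an unadjusted p under 0.05 (5.79% of all genes). The median log2 fold change of the 10 genes was 0.049, with 7 above 0 and 3 below, beside a median of 0.0077 over all genes. The groups failed to overlap, on the CPM scale, for 1 gene that was higher in every ATF4 BKO mouse, Bckdha (8.95% of all genes), and for 0 genes that were lower (10.6%).

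**Figure D2:**
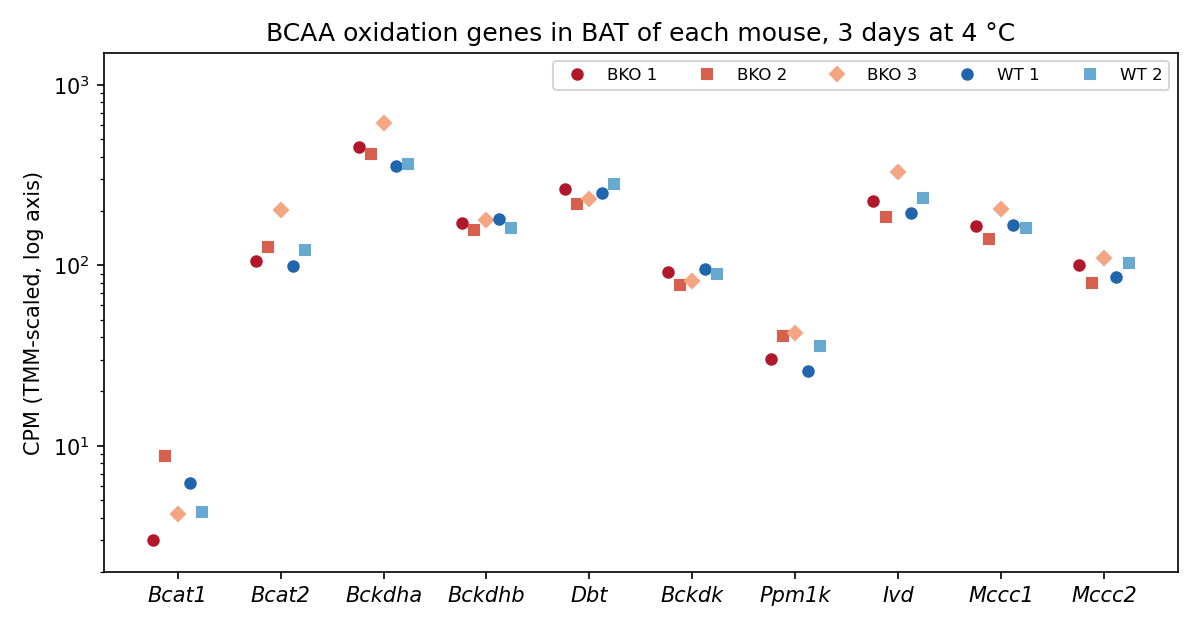
Expression of the 10 BCAA oxidation genes in each mouse, in TMM-scaled CPM on a log axis, with 1 point per mouse (red, ATF4 BKO; blue, WT). Bckdha is the only gene whose 3 ATF4 BKO points (416 to 613) all lie above both WT points (353 and 362), and ATF4 BKO replicate 3 is the highest point for 6 of the 10 genes.

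Among the transaminases, Bcat2 (chromosome 7, 45570153 to 45589711, plus strand) had 106, 126 and 201 CPM in ATF4 BKO replicates 1, 2 and 3 and 99.0 and 122 CPM in WT replicates 1 and 2. ATF4 BKO replicate 3 was high and the other ATF4 BKO mice lay within or close to the WT range. The log2 fold change was 0.39 (SE 0.29, 95% interval -0.32 to 1.10, edgeR adjusted p = 0.930), and without ATF4 BKO replicate 3 it was 0.079. Bcat1 had 3.00, 8.76 and 4.17 CPM in ATF4 BKO mice against 6.20 and 4.28 CPM in WT mice, with a log2 fold change of 0.022 (SE 0.48, 95% interval -1.16 to 1.20). The ATF4 BKO mice spread more than the groups differed, and the interval of the linear fold spans 0.448 to 2.30, so that a doubling or a halving could not have been told from no change.

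Bckdha (ENSMUSG00000060376.7, chromosome 7, 25629946 to 25658981, minus strand) had 454, 416 and 613 CPM in ATF4 BKO replicates 1, 2 and 3 and 353 and 362 CPM in WT replicates 1 and 2. Every ATF4 BKO mouse lay above both WT mice, which differed from each other by less than any ATF4 BKO mouse differed from them. The fold was 1.38 (95% interval 0.979 to 1.95), a log2 fold change of 0.47 (SE 0.20), which did not pass the test (edgeR adjusted p = 0.911, DESeq2 adjusted p = 0.842). The log2 fold change was 0.30 within prefix S1 (n = 2 and 1) and 0.76 within S2 (n = 1 and 1), and without ATF4 BKO replicate 3 it was 0.28. It was 0.53 without ATF4 BKO replicate 1, the library with Xist counts, 0.47 without WT replicate 2, the library highest in muscle markers, 0.23 with those markers as a covariate and 0.27 in limma on log2(TPM + 1). The mean log2 CPM of the muscle markers was -0.769, 0.887 and -1.37 in ATF4 BKO mice against 2.48 and 6.67 in WT mice. The covariate fit therefore cannot separate these markers from genotype. Of the 31-base words of Bckdha, 54.6% also occur in B3gnt8, a glycosyltransferase gene that overlaps it on the opposite strand, but B3gnt8 received only 86.7 to 205 estimated counts per mouse, 0.777% to 1.76% of the 10277 to 18219 of Bckdha.

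The other subunits did not share this pattern. Bckdhb had 171, 158 and 179 CPM in ATF4 BKO mice against 182 and 161 CPM in WT mice, with overlapping groups, a log2 fold change of -0.015 (SE 0.13) and a linear fold between 0.790 and 1.24 at 95%. Dbt had 265, 217 and 233 CPM in ATF4 BKO mice against 250 and 283 CPM in WT mice, also with overlap, and a log2 fold change of -0.16 (SE 0.15, linear fold between 0.694 and 1.15). Dld, the E3 subunit that BCKDH shares with the pyruvate and oxoglutarate dehydrogenases, had 973, 773 and 902 CPM in ATF4 BKO mice against 934 and 948 CPM in WT mice (log2 fold change -0.092, SE 0.16). Increases above 1.24-fold in Bckdhb and above 1.15-fold in Dbt lie outside these intervals.

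**Figure D3:**
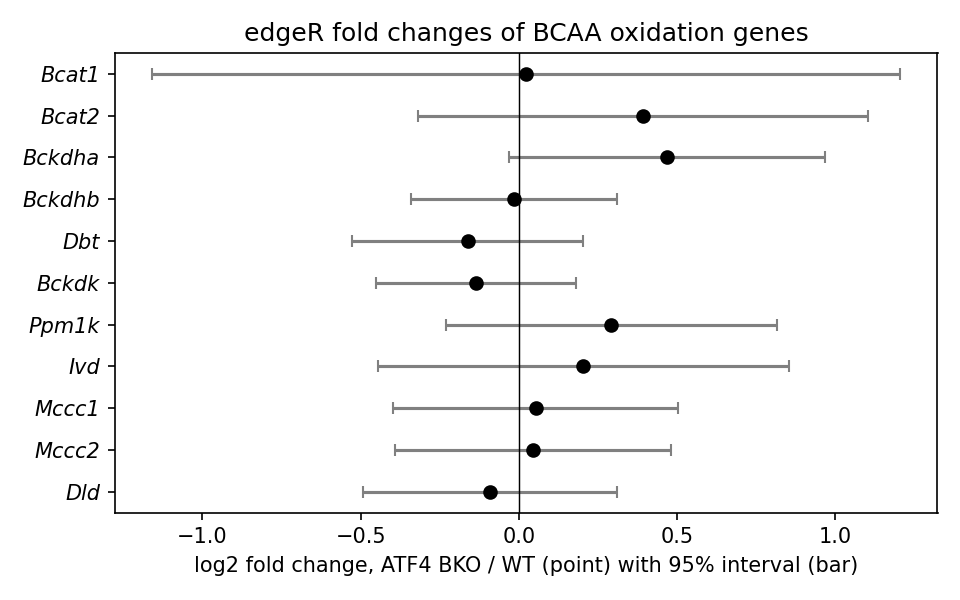
edgeR log2 fold change of ATF4 BKO over WT (points, horizontal axis) with its 95% interval (bars) for the 10 genes and Dld. All 11 intervals include 0; that of Bckdha (-0.031 to 0.97) only just does so, and that of Bcat1 (-1.16 to 1.20) is the widest.

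The control enzymes of BCKDH likewise did not pass the test. Bckdk had 92.3, 77.4 and 81.9 CPM in ATF4 BKO mice against 95.2 and 89.0 CPM in WT mice, with a log2 fold change of -0.14 (SE 0.13, linear fold between 0.731 and 1.13, edgeR adjusted p = 0.942). Ppm1k had 30.3, 40.5 and 42.3 CPM in ATF4 BKO mice against 26.0 and 35.6 CPM in WT mice, with a log2 fold change of 0.29 (SE 0.21, linear fold between 0.852 and 1.76). In both genes 1 ATF4 BKO mouse fell inside the WT range.

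In the leucine branch, Ivd had 226, 184 and 329 CPM in ATF4 BKO mice against 194 and 234 CPM in WT mice. Its ATF4 BKO values lay below, within and above the WT range, the log2 fold change was 0.20 (SE 0.27), and without ATF4 BKO replicate 3 it was -0.060. Mccc1 had 166, 140 and 204 CPM in ATF4 BKO mice against 167 and 160 CPM in WT mice (log2 fold change 0.053, SE 0.18). Mccc2 had 101, 79.8 and 110 CPM in ATF4 BKO mice against 85.6 and 102 CPM in WT mice (log2 fold change 0.045, SE 0.18). Both subunits of the carboxylase gave linear folds within 0.759 to 1.42 at 95%, and without ATF4 BKO replicate 3 their log2 fold changes were -0.098 and -0.056.

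The scale on which levels are read moves Dbt and Bckdk. In TPM, Dbt had 89.98, 83.9 and 81.4 in ATF4 BKO mice against 110 and 120 in WT mice, and Bckdk had 59.7, 55.1 and 51.7 against 68.5 and 69.3. Both were therefore lower in every ATF4 BKO mouse on the TPM scale (2 of 10 genes, against 24.9% of all genes) and overlapped on the CPM scale. With protein-coding transcripts alone, Bckdhb was also lower in every ATF4 BKO mouse (137, 147 and 147 TPM against 172 and 160). The share of all genes on that scale was not computed. Bckdha was again higher in every ATF4 BKO mouse (277, 290 and 387 TPM against 252 and 271), a pattern shared by 3.02% of all genes in TPM. The summed TPM of the 10 genes was 966, 998 and 1282 in ATF4 BKO mice against 1018 and 1126 in WT mice, which overlap.

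Ratios of 2 genes within a mouse do not depend on the scaling between libraries, and 5 were compared. The ratio of Dbt to Bckdha in TPM was 0.325, 0.290 and 0.210 in ATF4 BKO replicates 1, 2 and 3 and 0.436 and 0.444 in WT replicates 1 and 2. The groups did not overlap, with a difference of -0.70 on the log2 scale (-0.51 within S1 and -1.08 within S2). The ratio of Bckdhb to Bckdha was 0.620, 0.579 and 0.483 in ATF4 BKO mice against 0.787 and 0.687 in WT mice, a log2 difference of -0.40 (-0.39 within S1 and -0.51 within S2).

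For each of these ratios the exact two-sided permutation p was 0.1 (0.25 after adjustment over the 5 ratios), the smallest that 3 against 2 mice allow. Of all genes above 0 TPM in each library, 42.5% likewise gave a lower ratio to Bckdha in every ATF4 BKO mouse, so a lower ratio to Bckdha is not particular to Dbt and Bckdhb. Leaving out each mouse in turn kept both differences below 0, from -0.83 to -0.52 for Dbt and from -0.50 to -0.30 for Bckdhb. With estimated counts in place of TPM the difference for Dbt was -0.61 with p = 0.2 in the exact test. The short transcript Dbt-203 (446 bases) added 12.2 and 3.41 TPM to Dbt in WT replicates 1 and 2. These came from 78.8 and 22.4 estimated counts, and Dbt-203 had 0 in every ATF4 BKO mouse. The ratio without Dbt-203 was not computed. Dbt-201 alone had 88.6, 82.7 and 80.3 TPM in ATF4 BKO mice against 96.8 and 116 in WT mice. As Bckdha was higher in every ATF4 BKO mouse, the ratio of Dbt-201 to Bckdha also separates the genotypes.

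**Figure D4:**
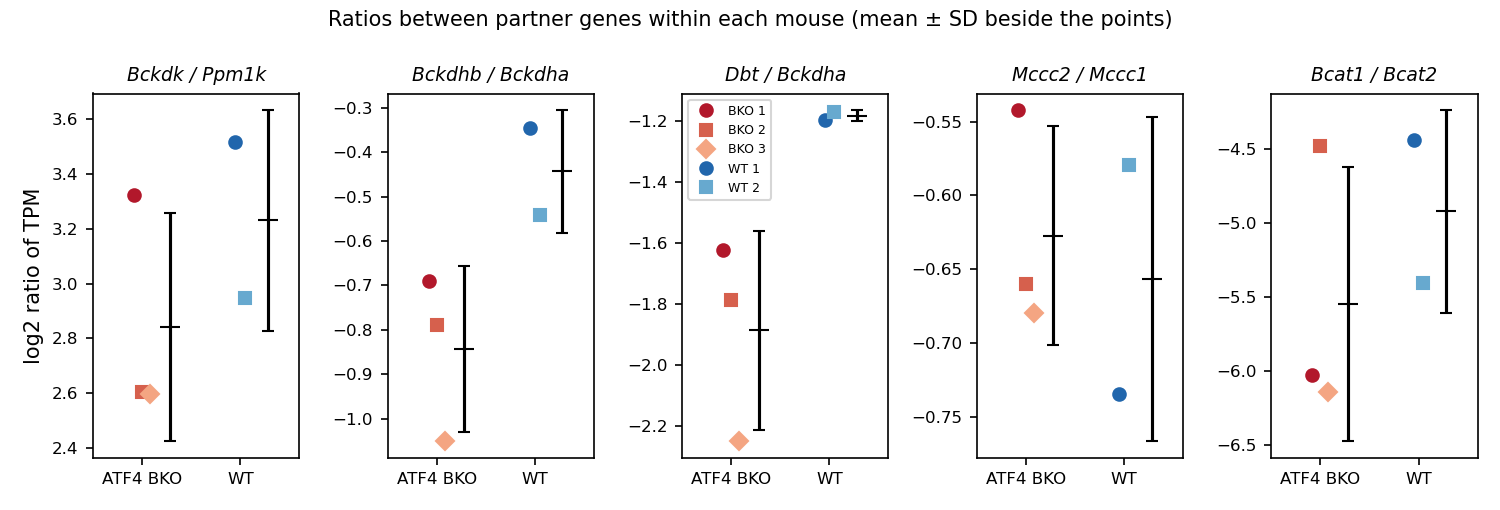
log2 ratio of the TPM of partner genes within each mouse (vertical axes, which differ between panels), with points for the 3 ATF4 BKO and 2 WT mice and the mean ± SD beside them. Only Bckdhb / Bckdha and Dbt / Bckdha separate the genotypes, with WT means of -0.44 and -1.18 and ATF4 BKO means of -0.84 and -1.89.

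The other 3 ratios overlapped between genotypes. Kinase to phosphatase mRNA (Bckdk to Ppm1k) was 10.01, 6.09 and 6.05 in ATF4 BKO mice against 11.4 and 7.71 in WT mice, a log2 difference of -0.39 (exact permutation p = 0.3). Mccc2 to Mccc1 was 0.687, 0.633 and 0.624 in ATF4 BKO mice against 0.601 and 0.669 in WT mice, the narrowest range of the 5 ratios on the log2 scale, with a log2 difference of 0.030 (exact permutation p = 0.8). Bcat1 to Bcat2 was 0.0153, 0.0447 and 0.0142 in ATF4 BKO mice against 0.0462 and 0.0236 in WT mice (log2 difference -0.63, exact permutation p = 0.5).

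The ATF4 BKO mice differed among themselves in the same direction for most of the genes. ATF4 BKO replicate 3 was the highest of the 5 libraries for 6 of the 10 genes, as it was for 18.1% of all genes, and ATF4 BKO replicate 2 the lowest for 6 of the 10, as it was for 21.8% of all genes. The tricarboxylic acid (TCA) cycle and fatty acid oxidation genes were ordered likewise, with ATF4 BKO replicate 3 highest for 11 of 17 and 15 of 18 and ATF4 BKO replicate 2 lowest for 13 of 17 and 13 of 18. ATF4 BKO replicate 2 had the highest macrophage marker sum of the ATF4 BKO mice (1302 TPM, against 427 and 680), and the part of this in the order was not tested.

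Of 33 other genes of BCAA uptake, oxidation and its control, 32 passed the filter (Slc6a15 did not), and 0 were called by edgeR or DESeq2. Their median log2 fold change was 0.070, with 26 above 0 and 6 below. Unadjusted edgeR p-values under 0.05 were found for 2 of 32, Slc7a5 and Klf15. In Slc7a5 every ATF4 BKO mouse lay below both WT mice, as in 10.6% of all genes tested.

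Slc7a5, the light chain of the large neutral amino acid transporter LAT1 that brings BCAA into cells, had 1.72, 5.23 and 1.62 CPM in ATF4 BKO mice against 15.6 and 7.55 CPM in WT mice. Its log2 fold change of -2.01 (SE 0.60, 95% interval -3.48 to -0.55) did not pass after adjustment (edgeR adjusted p = 0.861). Slc3a2, its heavy chain, had 135, 231 and 134 CPM against 204 and 227, which overlap (log2 fold change -0.37, SE 0.27). Slc25a44, the mitochondrial BCAA carrier of brown fat, had 140, 108 and 129 CPM in ATF4 BKO mice against 132 and 112 CPM in WT mice, with a log2 fold change of 0.045 (SE 0.16, 95% interval -0.35 to 0.44).

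Klf15, a transcription factor known to raise BCAA catabolic genes, had 38.4, 74.5 and 82.9 CPM in ATF4 BKO mice against 21.6 and 40.5 CPM in WT mice. ATF4 BKO replicate 1 lay within the WT range, and the log2 fold change of 1.07 (SE 0.41) did not pass after adjustment (edgeR adjusted p = 0.911). For the shared oxidation pathways that take up the products of BCAA, 0 of 17 TCA cycle genes and 0 of 18 fatty acid oxidation genes were called, with medians of 0.053 and 0.093 on the log2 scale beside 0.049 for the 10 BCAA genes. Hadha, Hadhb and Acaa2 stand on both the BCAA and the fatty acid list. The citrate synthase gene Cs was the only TCA gene whose groups did not overlap (2250, 1968 and 2201 CPM in ATF4 BKO mice against 2514 and 2297, log2 fold change -0.17, SE 0.17). Of all genes tested, 10.6% were likewise lower in every ATF4 BKO mouse.

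**Figure D5:**
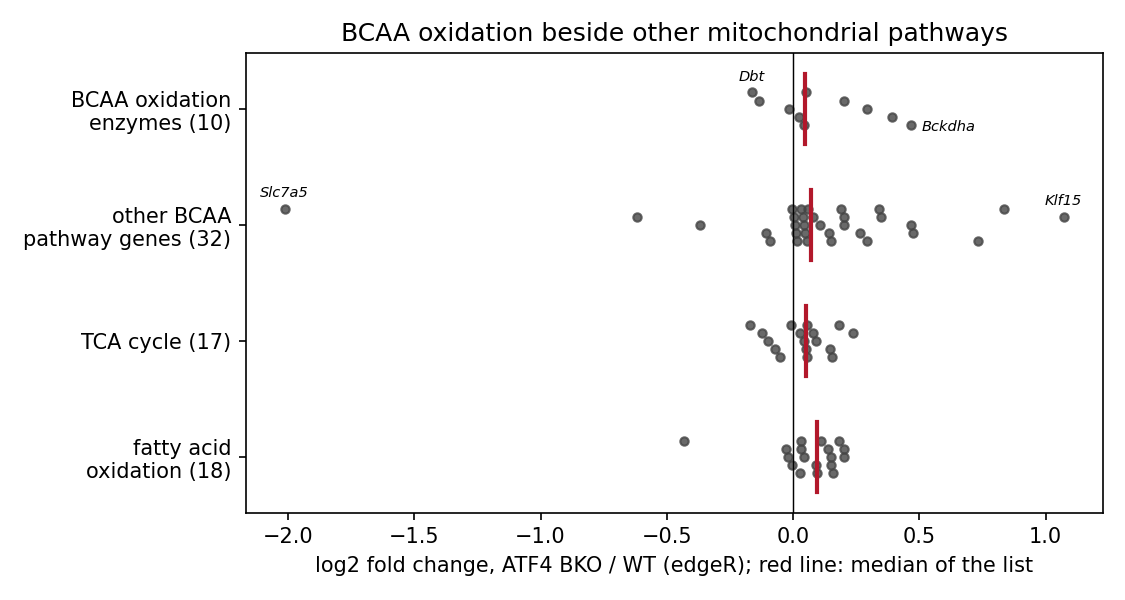
edgeR log2 fold change of ATF4 BKO over WT for each tested gene (points) of the 10 BCAA oxidation enzymes, 32 other BCAA pathway genes, 17 TCA cycle genes and 18 fatty acid oxidation genes, with a red line at each list's median. The 4 medians lie between 0.049 and 0.093, and Slc7a5 (-2.01) and Klf15 (1.07) are the outermost points.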

How the data were processed

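RNA of BAT from 3 ATF4 BKO and 2 WT mice was sequenced by the authors from stranded mRNA libraries. The authors deposited, per mouse and transcript, estimated counts made with Kallisto 0.45.0 (build mm10 per the labels), not normalized between mice. The deposited TPM values are those counts scaled for effective length and to a fixed total per mouse. The transcript annotation and strand option are not given in the sources used here, and a second workflow of the study was not analysed here.

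Estimated counts were summed per gene with GENCODE M21 (138191 of 141450 transcripts matched, and the others held 1.16% to 1.29% of counts) and rounded. Genes reaching 10 counts in 2 or more libraries were tested with edgeR 4.0.16 in R 4.3.3 (TMM, quasi-likelihood test, genotype alone, Benjamini-Hochberg). The common dispersion was 0.0758, with 3 residual and 3.06 prior degrees of freedom. Ratios used exact permutation tests over the 10 splits of the mice. Every pair of libraries differed by more than sampling noise. Scripts were tested on simulated data.

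The 10 genes and all lists were chosen with earlier results of these data known. Genes of the other lists are named where called, where groups did not overlap, for uptake steps and for pyruvate dehydrogenase control, and transcripts where they held at least 5% of a gene's TPM in a mouse. Klf15, Slc3a2 and B3gnt8 were chosen after their values were seen. A gene of the other BCAA pathway list is not reported by name here. Cell type marker lists are given by their counts and summed levels. Alternatives were DESeq2 1.42.0, limma 3.58.1 on log2(TPM + 1) and log2(TPM + 0.1), other scalings and filters, length-scaled counts, leaving out each mouse, blocks and a muscle covariate.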

Additional observations from a re-analysis of the deposited data

How the results depend on the processing

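The count of the 10 genes called was 0 under each alternative run. Beside DESeq2, some alternatives had 1 of 10 at an unadjusted p under 0.05. These were limma at pseudocounts 1 and 0.1 (1461 and 1159 of all 16450 genes) and the prefix block in edgeR (876). On the 2 limma scales the gene was not Bckdha, whose limma adjusted p was 0.653 and 0.731. Those of Dbt (0.550 and 0.672) and Bckdk (0.550 and 0.673) were smaller, and both genes were lower in ATF4 BKO mice there. No filter beyond 1 count (1385 of 28241) and leaving out ATF4 BKO replicate 2 (1101 of 16148) also had 1 of 10 in edgeR. Their median log2 fold change ranged from -0.063 to 0.20 over the alternatives. Of all genes, 121 were called with DESeq2, 8 with no filter beyond 1 count, 0 and 2 with limma at pseudocounts 1 and 0.1, 0 to 23 without 1 mouse (23 without WT replicate 1), 0 with the replicate block, 0 with the prefix as a block and 222 (214 higher and 8 lower) with the level of the muscle markers as a covariate. The muscle marker level was lower in every ATF4 BKO mouse, so that covariate cannot be separated from genotype. Same-numbered mice share only a number (correlations of deviations 0.0473 and 0.2 in 2 pairs).

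On the 2 limma TPM scales the median of all genes moved to -0.12 and -0.17, and with library totals alone to -0.099. On the same TPM scales the log2 fold change of Dbt was -0.43 and -0.44, and that of Bckdk was -0.31 on both. The median of the other BCAA pathway genes moved to -0.11 on both TPM scales and to -0.12 with the muscle covariate. That of the TCA cycle genes moved to -0.17 on both TPM scales, to -0.21 with the muscle covariate and to 0.24 within S2, and that of the fatty acid oxidation genes to -0.096 on both TPM scales and to -0.11 with the muscle covariate. 

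Directions near 0 turned. The Mccc2 to Mccc1 ratio (0.030) was -0.048 to 0.11 without 1 mouse (-0.013 without ATF4 BKO replicate 1, -0.048 without WT replicate 1) and -0.10 within S2. Bcat1 was -0.053 with library totals, -0.12 with length-scaled counts, -0.28 and -0.43 on the TPM scales, -0.057 with the prefix block, -0.27 within S1, -0.035 within S2 and -0.53 to 0.32 without 1 mouse. Bckdhb was 0.013 with at least 1 CPM in 2 libraries, 0.053 with length-scaled counts, 0.16 within S2 and -0.11 to 0.091 without 1 mouse. Without 1 mouse, Ivd ranged from -0.060 to 0.39, Mccc1 from -0.098 to 0.19 and Mccc2 from -0.062 to 0.18, and with the replicate block they were -0.063, -0.10 and -0.062. Mccc1 was also -0.060 with library totals, -0.077 and -0.078 on the TPM scales, -0.28 with the muscle covariate and -0.14 within S1. Mccc2 was also -0.071 with library totals and -0.047 and -0.048 on the TPM scales. The cause was not tested. Of the 10 genes Bcat1 had the lowest depth (3.00 to 8.76 CPM), and the WT spread comes from a single pair of mice.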

Other observations

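The kinases and phosphatases of pyruvate dehydrogenase, which is built and switched like BCKDH, were described beside it. All 6 were tested and 0 were called by edgeR or DESeq2, with 0 at an unadjusted edgeR p under 0.05 and a median log2 fold change of 0.18. Pdk4, the most abundant of the kinases, had 1629, 2821 and 1353 CPM in ATF4 BKO replicates 1, 2 and 3 and 1372 and 2660.0 CPM in WT replicates 1 and 2. The groups overlapped, and the log2 fold change was -0.060 (SE 0.41). Pdk1 had 188, 56.1 and 99.8 CPM in ATF4 BKO mice against 68.3 and 70.1 CPM in WT mice (log2 fold change 0.73, SE 0.48), with ATF4 BKO replicate 1 the highest. Pdk2 had 456, 334 and 460 CPM against 355 and 367 (log2 fold change 0.21, SE 0.19).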
